A study of Mus musculus with 3 samples.

Results

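The genes described here are the mouse zinc finger genes named Zfp followed by a number of 3 digits from 500 upwards, as the array's annotation names them. They were chosen by name alone, from the non-control spots of the array, and came to 170 of 30175 genes and 266 of 39429 probes. The RNA came from mouse embryoid bodies, balls of embryonic stem cells kept in suspension, which differentiate into many cell types once the cytokine LIF is withheld. The mutant+CT group carried the genotype Dido3deltaCT+HADido3CT: Dido3, the largest protein made from the Dido1 gene, lacks its C-terminal region, and that missing region, encoded by exon 16, is overexpressed (HADido3CT). The wild-type group carried the unaltered gene. Both were grown for 10 days in low-attachment suspension without LIF, and 3 biological replicates of each were hybridised in pairs on 3 two-colour arrays. No sample held the truncation alone or the added piece alone, so their contributions cannot be told apart.

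Most proteins of this set are C2H2 zinc finger proteins, in which short fingers joined by a conserved linker each read a few bases of DNA. Many carry a KRAB domain, which recruits the corepressor Trim28 and, through it, the histone methyltransferase Setdb1 and heterochromatin proteins, and silences retroelements in embryonic cells. Genes of the KRAB class arose by repeated local duplication, stand in clusters on the chromosomes and resemble each other closely in sequence. A smaller number of genes with such names have no KRAB domain and are known as developmental regulators, RNA-binding proteins or ribosome factors.

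On the array, a gene is read by 1 or more short oligonucleotide probes. The sequences below show the member probes that carry the stretch GGAGAGAAACC, in capitals, letters that in C2H2 genes commonly encode part of the linker between fingers. They are shown because most of them were brighter in the same dye on every array, whichever genotype it held, as described further on. The first 6 were at least 2-fold brighter in Cy3 than in Cy5 on every array, and the last 5 carry the same letters and were not.
Zfp947 A_66_P127956: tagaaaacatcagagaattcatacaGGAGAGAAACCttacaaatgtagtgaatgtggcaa
Zfp534 A_55_P2159665: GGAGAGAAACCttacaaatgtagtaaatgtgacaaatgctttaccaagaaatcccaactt
Zfp936 A_55_P1996082: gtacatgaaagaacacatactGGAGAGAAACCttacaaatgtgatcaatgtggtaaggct
Zfp933 A_52_P694988: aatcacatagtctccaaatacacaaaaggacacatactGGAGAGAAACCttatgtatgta
Zfp930 A_51_P517120: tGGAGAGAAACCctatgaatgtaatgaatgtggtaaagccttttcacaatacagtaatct
Zfp820 A_55_P1955325: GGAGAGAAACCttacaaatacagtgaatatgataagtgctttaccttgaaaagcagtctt
Zfp941 A_55_P2062652: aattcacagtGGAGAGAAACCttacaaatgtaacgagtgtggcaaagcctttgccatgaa
Zfp931 A_55_P1996046: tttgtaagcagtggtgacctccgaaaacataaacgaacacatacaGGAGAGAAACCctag
Zfp781 A_55_P1999453: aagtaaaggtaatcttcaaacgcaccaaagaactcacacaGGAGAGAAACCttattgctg
Zfp825 A_51_P417858: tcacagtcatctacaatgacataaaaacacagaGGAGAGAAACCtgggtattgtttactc
Zfp873 A_55_P1975852: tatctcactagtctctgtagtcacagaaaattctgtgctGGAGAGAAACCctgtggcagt

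The genes lie on 19 chromosomes, with 48 on chromosome 7 and 21 on chromosome 17. Of the 170, 95 have 1 probe and 75 have several. A probe was kept when it was marked well above background on all 3 arrays in mutant+CT or in wild type, which kept 161 member genes and 250 member probes, among 20470 genes and 26690 probes in all. The brightest kept probe stands for a gene. Of the 161 genes, 157 were well above background in both groups on every array. The 9 members not kept were Zfp541, Zfp575, Zfp597, Zfp616, Zfp735, Zfp775, Zfp831, Zfp853 and Zfp872.

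Values are normalised fluorescence intensities in arbitrary units, comparable between groups for 1 probe and not between probes. Ratios are log2 values of mutant+CT over wild type, so 1 is a doubling. Mutant+CT was labelled with Cy3 on replicates 1 and 3 and with Cy5 on replicate 2, the single array of that orientation, so that effects of dye and of replicate 2 cannot be told apart. Between 68.1% and 78.5% of the spots were well above background per channel, and no spot was saturated. Over the 20470 genes, Pearson's correlation of the log2 ratios was 0.54 between replicates 1 and 3, 0.38 between 2 and 3, and 0.18 between 1 and 2. Over the 161 members it was 0.68, 0.18 and 0.03 for the same pairs. These are correlations across genes, which are not independent replicates. Of the 4 probes for Dido1, the targeted gene, A_66_P128564 read 3.53 ± 0.12 and A_52_P226127 read -2.39 ± 1.29 (mean log2 ratio, SD, n = 3). A_55_P2430472 read 1.79 ± 0.33 and A_51_P336385 read 0.77 ± 0.80, and the probes were not mapped here to the removed or the overexpressed part.

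Cell type markers were summed as a rough view of the makeup of the embryoid bodies, and 0 of them passed the test. Brighter probes weigh more in such a sum. Summed over 7 measured neural progenitor markers, the intensity was 8119, 3383 and 9261 in mutant+CT on replicates 1 to 3, against 26263, 4379 and 38915 in wild type. Summed over 10 naive pluripotency markers it ranged over 73215 to 223250.3 in mutant+CT and 30145 to 51979 in wild type. The corresponding ranges were 74120.3 to 236795 and 37391 to 106674 for 8 visceral endoderm markers, and 70403 to 232267 and 274997 to 455227 for 7 parietal endoderm markers. For 7 cardiomyocyte markers the sums were 79553, 7169.6 and 6451 in mutant+CT on replicates 1 to 3, against 8935, 10327 and 8129 in wild type, so mutant+CT was higher on replicate 1 and lower on the others. For 7 trophoblast markers, with Tpbpa not kept, they were 10749 to 42813 and 4079 to 7705. For 5 primitive blood markers they were 1156 to 8986 and 14991 to 22899.7. Counted by marker, 5 of 7 neural, 6 of 7 parietal endoderm and 2 of 5 blood markers were lower on every array, against 17.1% of all genes. Higher on every array were 9 of 10 pluripotency, 7 of 8 visceral endoderm, 5 of 7 trophoblast and 1 of 7 cardiomyocyte markers, against 20.0% of all genes. Within the neural sums, Sox2 alone read 5539, 2083 and 7600 in mutant+CT and 7893, 1739 and 4593 in wild type. Foxa2 of the visceral set had a mean log2 ratio of -0.60, and Sparc of the parietal set one of 0.17. In whole embryoid bodies, fewer cells of a type and less RNA per cell cannot be told apart, and the part of these cell types in the results below was not tested.

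Across the zinc finger genes, differences between mutant+CT and wild type were small at most members, and none passed the test. The median log2 ratio of the 161 members was 0.10, -0.36 and -0.08 on replicates 1 to 3, against 0.01, 0.01 and 0.02 for all genes. In limma's moderated test with Benjamini-Hochberg adjustment over all genes, 0 of 161 members reached an adjusted p under 0.05, as did 0 of all 20470 genes (0.0%). Over single probes, 0 of 250 member probes and 36 of 26690 probes (0.135%) reached it, among them A_66_P128564 of Dido1 with an adjusted p of 0.0447. At an unadjusted p under 0.05 there were 25 members, which is 15.5%, against 15.6% of all genes. Of these, 6 were higher in mutant+CT (3.73%, against 8.92% of all genes) and 19 were lower (11.8%, against 6.66%). Agilent's processed signals gave 1 member with an adjusted p under 0.05, among 1.75% of all genes, and a trended and robust variance prior gave 1, among 0.879%. In both cases it was Zfp605. At an adjusted p under 0.1 there was 1 member, Zfp605 again (0.621%, against 1.44% of all genes).

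Direction was also counted array by array. Higher in mutant+CT on every array were 20 of 161 members (12.4%), against 20.0% of all genes. Lower on every array were 43 (26.7%), against 17.1% of all genes. A difference of at least 2-fold on every array was found at 1 member in the higher direction, Zfp605 (0.621%, against 1.86% of all genes). In the lower direction it was found at 1 member, Zfp503 (0.621%, against 0.967%). These counts moved with single arrays: the higher one was 12 without replicate 2 and 2 without replicate 3, and the lower one was 6, 4 and 2 without replicates 1, 2 and 3. The share of all genes was not counted for these settings. Without replicate 2, mutant+CT was in Cy3 on each remaining array, so probes brighter in Cy3 on every array enter the higher count. Zfp947, Zfp534, Zfp936, Zfp933 and Zfp930, described further on, are among the 12. With the mean of all probes of a gene, 0 members were 2-fold higher. The median member ratio over the 3 arrays was -0.03, against -0.003 for all genes, and the middle of the set, from its lower to its upper quartile, lay between -0.39 and 0.26.

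**Figure D1:**
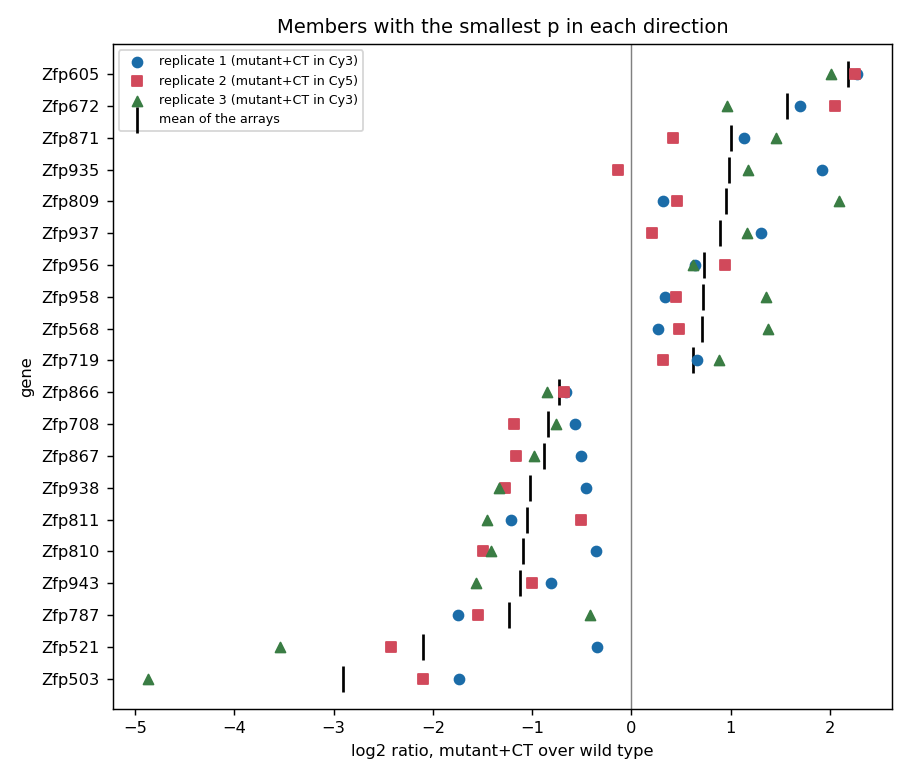
Log2 ratio of mutant+CT over wild type (x axis) on each array for the 10 higher and 10 lower members with the smallest p; points are replicates and the vertical bar is their mean. Zfp605 sits at 2.27, 2.25 and 2.01, while Zfp503 and Zfp521 spread from -1.73 to -4.87 and from -0.35 to -3.54.

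Zfp605, a gene on chromosome 5, had the smallest p of all members. Its brightest kept probe, A_55_P2039099, read 468, 521 and 458 in mutant+CT on replicates 1 to 3, against 96.9, 109.7 and 113 in wild type. Every mutant+CT value was above every wild-type value, in either dye orientation. The log2 ratio was 2.18 ± 0.14 (SD, n = 3) and limma's adjusted p was 0.0730 over all genes and 0.0503 over all kept probes. With Agilent's processed signals the ratio was 3.52, with an adjusted p of 0.0322 in limma. As the mean of all kept probes of the gene it was 1.11, with an adjusted p of 0.130 in limma.

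The 4 probes of Zfp605 did not give the same answer. Their sequences are printed because they separate by position along the gene, in the order of the plus strand of mm9.
Zfp605 A_55_P1995684: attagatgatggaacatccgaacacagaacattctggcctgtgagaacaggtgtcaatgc
Zfp605 A_55_P2039099: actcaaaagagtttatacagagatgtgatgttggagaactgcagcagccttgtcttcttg
Zfp605 A_55_P2039100: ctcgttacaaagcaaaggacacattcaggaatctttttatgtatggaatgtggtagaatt
Zfp605 A_55_P2174868: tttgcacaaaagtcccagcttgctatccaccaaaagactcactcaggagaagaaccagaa
They lie at chr5:110539499-110539558, chr5:110552839-110552898, chr5:110556601-110556660 and chr5:110556745-110556804. The files tie the first probe to a transcript of its own and the others to the gene's RefSeq transcript. The first read 426, 176 and 152 in mutant+CT, against 91.9, 75.6 and 67.4 in wild type. In wild type it was not well above background on any array, so the difference is a lower bound, at least 2.83-fold higher in mutant+CT, with a limma adjusted p of 0.103 over probes. The third was well above background on 2 of the 3 arrays in each group, was not kept, and had a mean log2 ratio of -0.22. The last read 127, 87.0 and 100.02 in mutant+CT, against 129, 119.6 and 160.4 in wild type, a log2 ratio of -0.39 ± 0.34 with a limma adjusted p of 0.511. The higher values in mutant+CT were thus at the first pair of probes, and the other pair, 17.1 and 17.2 kb from the first, had mean log2 ratios below 0. Which exons the probes fall in was not analysed here.

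**Figure D2:**
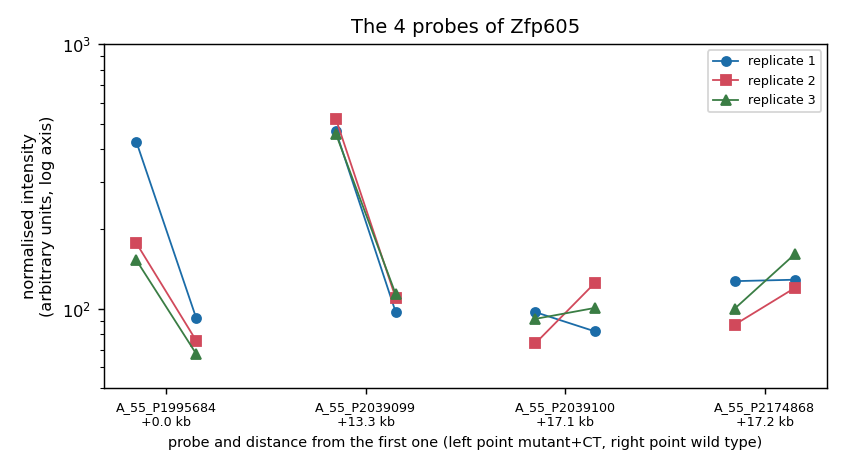
Normalised intensity (log axis, arbitrary units) at each of the 4 Zfp605 probes, ordered by distance from the first probe in kb; the left point of each line is mutant+CT and the right point wild type, 1 line per replicate. The lines at the first and second probes slope down to wild type on all 3 replicates. At the third probe only the line of replicate 1 does (log2 ratio 0.24), and at the last probe none does.

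Other members were higher in mutant+CT on every array without passing the test. Zfp672 had the next smallest p in that direction: its brighter probe read 1339.8, 1543 and 1667 in mutant+CT, against 414, 372 and 858 in wild type. The groups did not overlap, and the log2 ratio was 1.57 ± 0.56 (SD, n = 3) with a limma adjusted p of 0.117. Its other probe, however, had log2 ratios of -0.63, -0.31 and 0.55. Zfp956 read 1188, 1696 and 1379 in mutant+CT and 764, 879 and 896 in wild type, again without overlap, at 0.74 ± 0.18 and an adjusted p of 0.220 in limma. Its 2 probes, at 0.81 and 0.74, lay close together. Zfp871, Zfp937, Zfp719 and Zfp958 had mean log2 ratios of 1.00, 0.89, 0.62 and 0.72, with limma adjusted p between 0.205 and 0.332. Other probes of Zfp937 and Zfp958 went down to -0.43 and -0.27. Zfp935 averaged 0.99, but was at -0.14 on replicate 2, the array with swapped dyes. Its probe shares a run of 16 bases with 9 probes of other genes.

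Members lower in mutant+CT were more numerous, and several had narrow spreads. Zfp866 read 799.5, 649 and 644 in mutant+CT, against 1259.7, 1041 and 1159 in wild type, with no overlap. Its log2 ratio of -0.73 ± 0.10 (SD, n = 3) was among the tightest of the named members, and its limma adjusted p was 0.215. Zfp943 read 1312, 726 and 762 in mutant+CT and 2294, 1457 and 2253 in wild type, at -1.13 ± 0.39 and an adjusted p of 0.148 in limma. Zfp938, Zfp810 and Zfp867 had mean ratios of -1.02, -1.09 and -0.88, with all 3 arrays below 0 for each. The other probe of Zfp867 averaged 0.31. Zfp787 read 878, 2882 and 2001 in mutant+CT, against 2949, 8403 and 2669.8 in wild type, and the groups overlapped although each array was below 0. Its 3 probes averaged between -1.24 and -0.09. Zfp566, at -0.71 ± 0.31, was lower on all 3 arrays with log2 ratios from -1.02 to -0.41.

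The largest mean differences in the lower direction were at Zfp503, Zfp521 and Zfp536, genes known for roles in the developing nervous system. Zfp503, a relative of the fly gene elbow that acts in the developing striatum and eye, read 1177, 143 and 169 in mutant+CT, against 3912, 614 and 4938 in wild type. Its log2 ratios were -1.73, -2.10 and -4.87, lower in mutant+CT on each array although the groups overlapped between arrays. Its mean of -2.90 ± 1.71 (SD, n = 3) had a limma adjusted p of 0.147, and its second probe averaged -2.18. Zfp521, a factor that promotes the entry of mouse embryonic stem cells into the neural lineage, read 1382, 144 and 269 in mutant+CT, against 1761, 767 and 3128 in wild type. Its ratios of -0.35, -2.42 and -3.54 averaged -2.10 ± 1.62, with a limma adjusted p of 0.214, and its second probe averaged -1.62. Without replicate 1, Zfp521 averaged -2.98 and its limma adjusted p was 0.0406, among 0.733% of all genes called there.

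Zfp536, a gene expressed in developing brain and known as a repressor of neuronal differentiation, read 153, 140.3 and 177 in mutant+CT, against 837, 130.2 and 1189 in wild type. Replicates 1 and 3 were lower in mutant+CT and replicate 2 was not, in which wild type was as dim as mutant+CT. Its log2 ratio was -1.70 ± 1.57, and both probes gave values between -1.70 and -1.46. In wild type, Zfp503, Zfp521, Zfp536 and the summed neural progenitor markers were each lowest on replicate 2. So were other members, such as Zfp580 and Zfp608, and how many was not counted. Of the 7 neural markers, 5 were lower in mutant+CT on every array, Nes was at -1.06, 0.11 and -2.89, and Sox2, which pluripotent cells also express, was at -0.51, 0.26 and 0.73. The part of neural cells in the values of these zinc finger genes was not tested.

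**Figure D3:**
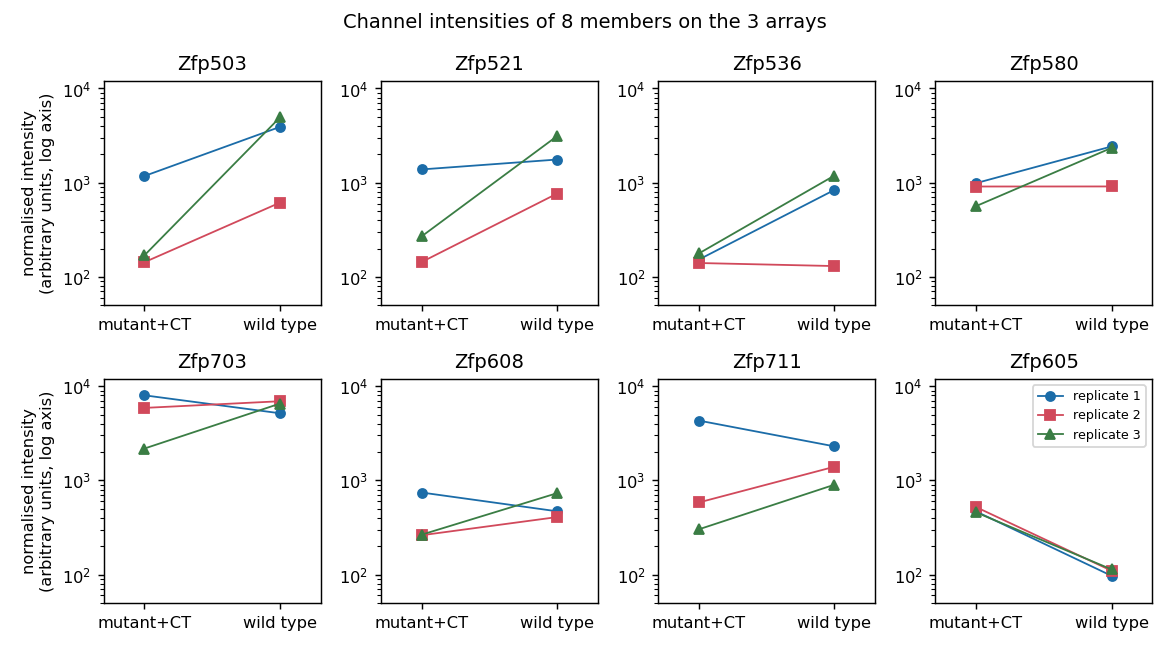
Normalised intensity (log axis, arbitrary units) of 8 members in mutant+CT (left) and wild type (right), with 1 line per replicate. Zfp503 and Zfp521 are lower in mutant+CT on each replicate, Zfp536 on replicates 1 and 3, and Zfp605 is higher on each.

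Among further developmental and chromatin factors, some had ratios of both signs over the arrays and others of 1 sign. Zfp703, a corepressor-binding relative of Zfp503, read 8003, 5881 and 2177 in mutant+CT, against 5157, 6921 and 6538 in wild type, so it was higher on replicate 1 and lower on the others. Zfp608 and the X-linked activator Zfp711 had the same order, with ratios of 0.66, -0.64 and -1.47 and of 0.91, -1.26 and -1.57. Zfp580 was at -1.30, -0.002 and -2.06, all below 0 but close to it on replicate 2. Zfp618, a partner of Uhrf2, was at 1.96, 0.30 and -0.56 on replicates 1 to 3, and its 3 kept probes averaged between -0.72 and 0.57. Zfp532, Zfp592 and Zfp687, which act together in a complex at chromatin, averaged -0.37, -0.01 and 0.32. Zfp609, which binds the cohesin loader, averaged -0.20 ± 0.13, and Zfp746, a repressor of the gene for PGC-1alpha in neurons, averaged -0.53 ± 0.50. Zfp750, an epidermal differentiation factor, averaged 0.65 ± 0.82, with ratios of 0.76, -0.22 and 1.42 that change sign on the array with swapped dyes. Zfp516, a cofactor in brown fat, averaged 0.09. The means of Zfp507, Zfp637, Zfp644, Zfp704 and Zfp827 lay between -0.24 and 0.39, and each had ratios of both signs over the arrays.

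Among members that act on RNA or ribosomes, the differences of Zfp622 and Zfp593 were small, as was that of Zfp706, another of the listed factors. Zfp622, which helps to mature the large ribosomal subunit, read 15142, 24682 and 18737 in mutant+CT, against 17110.3, 19992 and 17706 in wild type, a log2 ratio of 0.07 ± 0.24. Zfp593, another factor of the large subunit, averaged 0.35 ± 0.30, and Zfp706 averaged 0.35 ± 0.20, both above 0 on every array. Zfp598, the ubiquitin ligase that marks collided ribosomes, was at 1.36, -0.82 and 1.41, and Zfp830, a factor of splicing and genome stability, at 0.31, -0.66 and -0.02. Of the 26 listed developmental, chromatin, RNA and ribosome factors, 25 were measured and 0 passed the test. Their median ratio was -0.12, against -0.003 for all genes. On every array 2 of the 25 were higher (8%, against 20.0% of all genes) and 6 were lower (24%, against 17.1%).

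Among members known to silence retroelements or an imprinted gene, 3 of 5 measured were higher in mutant+CT on every array, against 20.0% of all genes. Zfp809, which silences proviruses of the murine leukaemia type, read 648, 3077 and 3253 in mutant+CT, against 519, 2239 and 766 in wild type. It was higher on each array, mostly on replicate 3, at 0.95 ± 0.98 with a limma adjusted p of 0.356, and its other probe averaged 0.95 too. Zfp568, which represses a placental transcript of Igf2, read 151, 407 and 345 in mutant+CT and 125, 292 and 133 in wild type, at 0.71 ± 0.59. Zfp819, a retrotransposon repressor of pluripotent cells, averaged 0.57 ± 0.46. Zfp932, which acts on endogenous retroviruses of the ERVK class, was at -0.02, 0.95 and 0.41.

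Zfp708, which binds a retroelement family in the mouse embryo, went the other way. It read 202, 262 and 511 in mutant+CT, against 299.9, 597 and 862 in wild type, a log2 ratio of -0.84 ± 0.32 with a limma adjusted p of 0.206. Its other probe averaged -0.37. The list had a median of 0.16, 0.48 and 1.06 on replicates 1 to 3, and 0 of its 5 genes passed the test. The naive pluripotency markers given above were also higher in mutant+CT, at 9 of 10 on every array, and their part in this result was not tested.

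The partners through which KRAB proteins act were measured as a list. Of 26 listed corepressor genes, 25 were measured, 0 passed the test, 3 were higher on every array (Daxx, Kdm1a and Suv39h2; 12%, against 20.0% of all genes) and 0 were lower on every array (against 17.1%). The list's median was 0.20, 0.07 and 0.07 on the 3 arrays. Single genes ranged more widely, with means from -0.75 for Chd3 to 0.80 for Morc3. Chd3 was at 0.17, 0.02 and -2.44, so its mean rested on replicate 3. Morc3 was at 0.97, -0.18 and 1.61, changing sign on the array with swapped dyes. Of the 25, 9 were brighter in Cy3 on every array, against 16.1% of all genes, and 4 in Cy5, against 16.8%. Trim28 was at 0.04, 0.59 and -0.54, and Setdb1 at 0.58, -0.09 and 0.24. The smallest limma adjusted p in the list was 0.406.

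Position on the chromosomes was used to divide the set. A clustered gene was in a run of at least 3 members with neighbours within 1 Mb, which gave 17 clusters on 9 chromosomes, of 3 to 10 genes, holding 90 members. The other 80 were dispersed. On replicates 1 to 3, the 87 measured clustered genes had a median log2 ratio of 0.12, -0.53 and -0.16, and the 74 measured dispersed genes one of 0.10, -0.18 and -0.01. Clustered minus dispersed was 0.02, -0.34 and -0.16, with a mean of -0.16 ± 0.18 (SD, n = 3), which is smaller than the spread between arrays. Lower on every array were 29 clustered genes (33.3%) and 14 dispersed genes (18.9%), against 17.1% of all genes. Higher on every array were 9 clustered genes (10.3%) and 11 dispersed genes (14.9%), against 20.0% of all genes. The 5 mean ratios farthest from 0, of Zfp503, Zfp521 and Zfp536 below it and of Zfp605 and Zfp672 above it, belonged to dispersed genes.

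**Figure D4:**
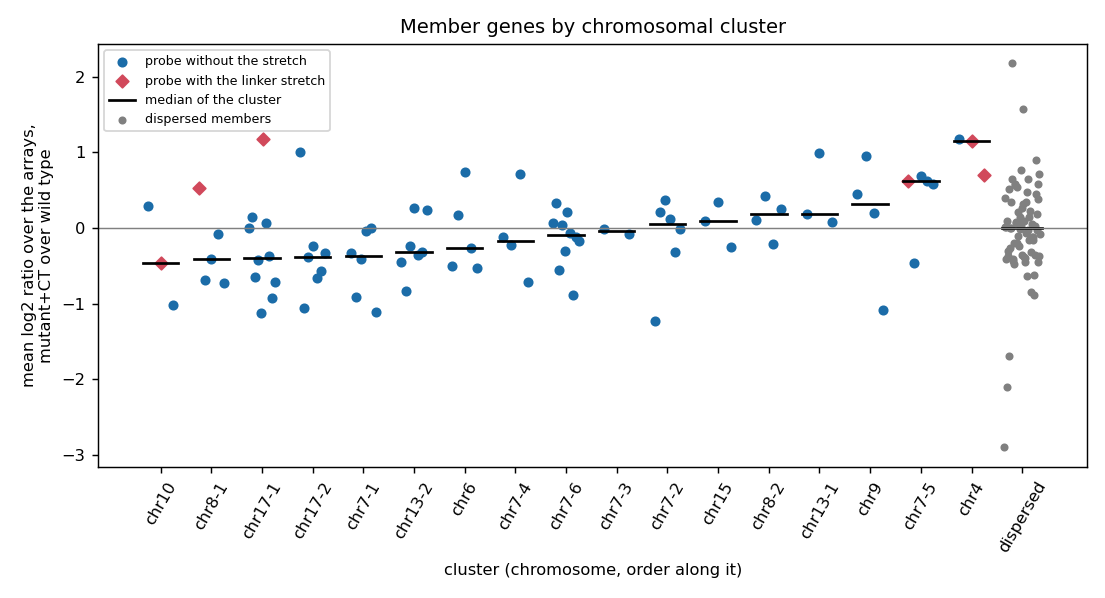
Mean log2 ratio of mutant+CT over wild type (y axis) of each measured member, by cluster (x axis, ordered by median, named by chromosome and order along it) with the dispersed members at the right. Cluster medians run from -0.46 to 1.15, and the cluster on chromosome 4 with the highest one holds 2 probes with the linker stretch (diamonds).

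Single clusters held genes with opposite values. In the cluster at chr17:32910629-33247634 (mm9), 5 of 7 genes were lower in mutant+CT on every array: Zfp811, Zfp870, Zfp952, Zfp763 and Zfp563. The share was 33.3% over all clustered members and 17.1% over all genes. Zfp811 read 308, 193 and 263 in mutant+CT, against 711, 274 and 718 in wild type, with the groups overlapping between arrays, at -1.05 ± 0.49 with a limma adjusted p of 0.181. Its neighbour in the list, Zfp871, read 368, 837 and 729 in mutant+CT, against 168, 628 and 266 in wild type, at 1.00 ± 0.53 with an adjusted p of 0.205 in limma. The ratios of Zfp811 were -1.21, -0.50 and -1.45 and those of Zfp871 were 1.13, 0.42 and 1.45, so each was smallest in size on replicate 2. The remaining genes were closer to 0, between -0.66 for Zfp952 and -0.24 for Zfp870. The less bright kept probe of Zfp763 averaged 0.15.

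The promoters of these neighbours are shown because their values had opposite signs. Each is the RefSeq sequence of GRCm38.p6 from 250 bases before to 50 after the first listed start, on the minus strand, with CG dinucleotides in capitals.
Zfp871: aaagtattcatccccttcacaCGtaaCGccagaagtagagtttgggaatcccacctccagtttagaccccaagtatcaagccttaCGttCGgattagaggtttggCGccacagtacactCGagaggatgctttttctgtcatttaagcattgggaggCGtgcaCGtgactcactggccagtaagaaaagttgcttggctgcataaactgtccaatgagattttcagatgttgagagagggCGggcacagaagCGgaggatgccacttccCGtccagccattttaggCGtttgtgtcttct
Zfp811: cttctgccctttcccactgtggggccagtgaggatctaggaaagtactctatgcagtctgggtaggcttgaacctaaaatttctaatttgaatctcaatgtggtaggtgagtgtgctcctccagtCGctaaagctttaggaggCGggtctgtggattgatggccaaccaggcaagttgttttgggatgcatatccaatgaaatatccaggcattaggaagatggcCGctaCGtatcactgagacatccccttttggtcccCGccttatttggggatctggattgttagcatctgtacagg
The first is chr17:32788238-32788537 with 12 CG dinucleotides, and the second chr17:32809882-32810181 with 5. The 300-base promoters of 141 members could be matched. Their median was 14 CG dinucleotides, against 7 for all 27025 promoters of the same length. It was 12 for 77 clustered members and 16 for 64 dispersed ones. The letters GGGCGG, searched on both strands, were found in 46.8% of the members' promoters and in 35.9% of all. TATAAA was found in 3.55% against 14.2%, and CCGGAAG in 15.6% against 9.12%. The promoter of Zfp871 holds GGGCGG, and that of Zfp811 holds none of the 3. No motif contains another, and a match is a description of the sequence only.

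Elsewhere, the cluster at chr17:21535980-22986112 had 10 genes, of which 4 were lower on every array and 0 higher, and a median of -0.40. The cluster at chr8:71752264-72290646, with Zfp866, had 3 of 5 lower on every array. The median of a cluster was below 0 on all 3 arrays in 4 of the 17 clusters, and above 0 on all 3 in 1, at chr8:74416272-74494111. The leading gene by p there, Zfp882, averaged 0.43 at its brightest probe, and its 3 kept probes ran from -0.35 to 0.43. On replicate 2 alone, 13 of the 17 medians were below 0. In the remaining clusters the gene with the smallest p was Zfp629, at -0.88 ± 1.21, Zfp707, at 0.34 ± 0.63, Zfp526, at -0.08 ± 0.07, Zfp600, or a gene named above. Zfp600 had ratios of 1.60, -0.53 and 2.45, which also change sign on the array with swapped dyes.

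The 5 members with the largest SD over the arrays had ratios that changed sign on the array with swapped dyes. Zfp947 read 68245, 13133 and 84354 in mutant+CT, against 13039.5, 36449.8 and 13659 in wild type, so the Cy3 channel was brighter on each array whichever group it held. Its log2 ratios of 2.39, -1.47 and 2.63 change sign on replicate 2, where the dyes were swapped. Its other probe, without the linker stretch, gave -0.62, 0.28 and -0.83. Zfp534, Zfp933, Zfp936 and Zfp930 showed the same pattern, with ratios of 2.16, -1.37 and 2.65, of 1.72, -1.55 and 1.93, of 1.83, -1.68 and 1.69, and of 1.57, -1.44 and 1.48. These 5 are the members with the largest SD over the arrays, and each is represented by a probe printed above. Their ratios are therefore given with no reading of a difference between mutant+CT and wild type.

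The stretch is the longest run of bases that the probes of these 5 genes share, so it was chosen from these values. It is on 34 of 39429 probes (0.0862%) and on 11 of 266 member probes (4.14%), all of them kept. On those 11, the median log2 ratio of Cy3 over Cy5 was 1.53, 1.02 and 1.48 on replicates 1 to 3, and 8 were brighter in Cy3 on every array. On the 239 kept member probes without it, the same medians were 0.03, 0.23 and -0.09, and 48 (20.1%) were brighter in Cy3 on every array. At least 2-fold brighter in Cy3 on every array were 6 of the 11 and 1 of the 239, against 0.828% of all kept probes. In the opposite direction, 0 of the 250 kept member probes were at least 2-fold brighter in Cy5 on every array, against 0.0337% of all kept probes. Of the 11, the 6 that did not give the stretch had Cy3 over Cy5 medians of 0.38, 0.57 and 0.30, with 3 brighter in Cy3 on every array and 1 at least 2-fold brighter. The 23 probes of other genes with the stretch, which did not enter its choice, had medians of 1.64, 1.40 and 1.35, and 14 were at least 2-fold brighter in Cy3 on every array.

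The member probes with the stretch also differed in their letters. They held 38.9% A on average, against 29.9% in the other kept member probes and 28.8% in all kept probes. Of the 11, 10 shared a run of 16 bases with probes of other genes, a median of 13 such probes each, and 39 of the 239 others did. In Zfp941, Zfp931, Zfp781, Zfp825 and Zfp873, which carry the letters and were not brighter in Cy3 by 2-fold on every array, the mean log2 ratio of Cy3 over Cy5 was 1.28, 0.59, 0.23, 0.25 and -0.18. Over all members, 39 genes (24.2%) were brighter in Cy3 on every array, against 16.1% of all genes, and 10 (6.21%) in Cy5, against 16.8%. Without the 7 genes represented by a probe with the stretch, the clustered minus dispersed difference was -0.05, -0.28 and -0.25, a mean of -0.19 ± 0.12.

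**Figure D5:**
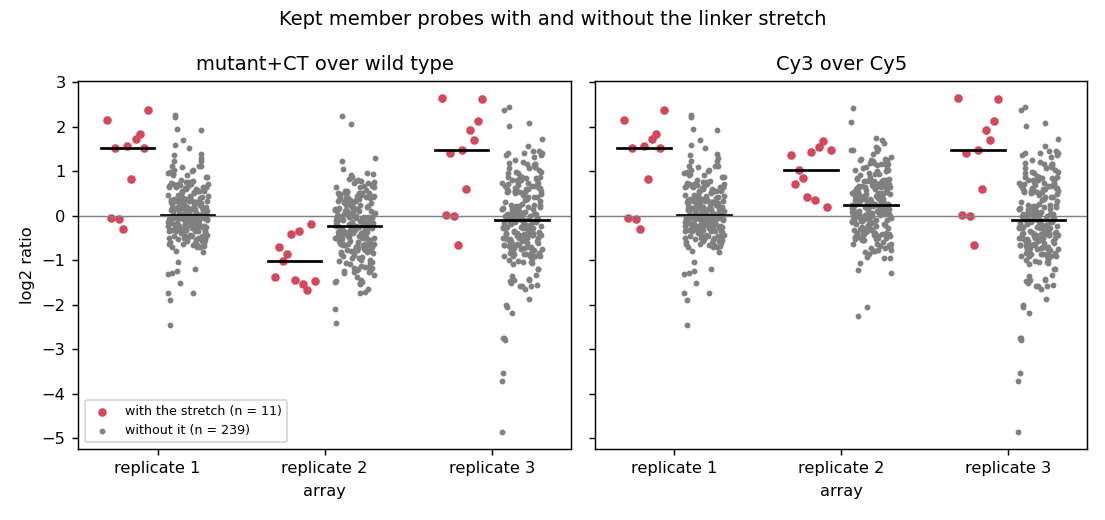
Log2 ratios (y axis) of the kept member probes with the linker stretch (red, n = 11) and without it (grey, n = 239) on each array, as mutant+CT over wild type (left) and as Cy3 over Cy5 (right); bars are medians. The red medians are 1.53, -1.02 and 1.48 on the left and 1.53, 1.02 and 1.48 on the right, where they do not change sign.

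Probes of the same gene often disagreed. Of 71 member genes with several kept probes, 48 had mean ratios of the same sign at all of them and 23 did not. The median spread between the highest and lowest probe was 0.40 on the log2 scale, 11 genes had a spread of 1 or more, and the widest was 2.56, at Zfp605. Zfp748 was a further case: its probe A_51_P344499 read 189, 130.4 and 153 in mutant+CT, against 65.6, 75.4 and 66.3 in wild type, where it was not well above background on any array. The difference was at least 2.20-fold, with a limma adjusted p of 0.119 over probes, while the gene's brighter probe averaged -0.32. Zfp619 had probes at 0.07 and -1.35. Zfp748 and Zfp619 were named after their values were seen.

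The other genes named Zfp and a number, 160 of them measured, had a median of 0.14, -0.26 and -0.24 on replicates 1 to 3. Of these, 30 were higher in mutant+CT on every array (18.8%, against 20.0% of all genes). Lower on every array were 34 (21.2%, against 17.1%). No difference between the members and those genes was tested.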

How the data were processed

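Each array held cRNA of 1 mutant+CT and 1 wild-type culture, 1 µg of total RNA being amplified and 300 ng of cRNA hybridised per dye, per the labels' protocols. The deposited scanner files hold the intensity of each spot and of its local background in both dyes, which the scanner software Agilent Feature Extraction, version 10.7.3.1, wrote, per the file headers. The deposited files also give log10 ratios, red over green, of processed signals, per the file headers, which were not used for any value here. The deposited value table holds log2 ratios made by the authors with limma, per the submitters' processing notes; its exact steps are not given in the sources used here. In it, mutant+CT stands over wild type, the column medians are -0.02, 0.01 and -0.01, and values correlate with the ratios computed here at 0.994, 0.996 and 0.998. All 3 arrays share 1 contrast, so no group was compared across tables.

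Intensities were corrected with normexp (offset 50) and ratios normalised within each array by loess in limma 3.58.1 (R 4.3.3), control spots having weight 0 and spots marked as outliers (454, 234 and 507) being left out. Channel intensities were scaled between arrays by their average quantiles. Ratios were tested against 0 with limma's lmFit and eBayes, with Benjamini-Hochberg adjustment over 20470 genes, or over 26690 probes, at 0.05. On simulated data, 0, 17, 28 and 35 of 50 genes were recovered at log2 changes of 1, 2, 3 and 4, with 1 false call among 20270. The simulation had independent normal noise, no dye effect and few changed genes, so these counts do not give the sensitivity on the real arrays. Positions are the files' mm9 coordinates, and 166 of 170 members matched RefSeq by accession, used for names only, with 2 under another symbol (Zfp607a for Zfp607, Champ1 for Zfp828). Zfp638, Zfp982 and Fam208a, which are in the lists, were not found under those names. The number of arrays limits the precision. The p-values rest on the spread between 3 pairs of cultures, with each variance moderated by limma over all genes or all kept probes.

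The members and gene lists were chosen with earlier results of these data known. Named were the 10 members with the smallest p in each direction, in each cluster the member of smallest p, the 5 with the largest SD and the listed known factors, 56 in all. Alternatives were Agilent's processed signals, no background subtraction, median centring, the deposited table, a dye term, other filters on dim probes, the mean of all probes, a trended and robust prior, leaving out probes with GAA runs of at least 12 bases, other cluster definitions, each array left out, and, added after the values were seen, leaving out probes with the linker stretch.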

Additional observations from a re-analysis of the deposited data

How the results depend on the processing

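The analysis was paired by array, as each array sets 1 mutant+CT sample against 1 wild-type sample. This gives a single group of 3 ratios, which were tested against 0. The count of members with an adjusted p under 0.05 in limma was 0, and became 1 with Agilent's processed signals (Zfp605, log2 ratio 3.52, adjusted p 0.0322), with the trended and robust prior (Zfp605, adjusted p 0.0438) and at an adjusted p under 0.1; leaving out each replicate gave 0 to 1, the 1 being Zfp521 without replicate 1. The smallest adjusted p of any member ranged over 0.0322 to 0.164. The count of member probes called was 0 (0.135% of all kept probes), against 4 with Agilent's processed signals (2.86%), 3 with the trended and robust prior (1.78%), and 1 each with the deposited table (0.569%), with the filter in both channels (0.651%) and without GAA-run probes (0.432%). The count at least 2-fold higher on every array was 1, against 0 with the mean of all probes and 1 to 12 when a replicate was left out, with 12 without replicate 2 and 2 without replicate 3. At least 2-fold lower was 1, against 2 to 6 (6, 4 and 2 without replicates 1, 2 and 3). For these 2-fold counts, the share of all genes was not counted with a replicate left out. Without replicate 2, the higher count includes probes brighter in Cy3 on every array. The median ratio of the members moved between -0.17 and 0.02, and the clustered minus dispersed difference between -0.29 and -0.07; no alternative moved either by more than the spread between arrays. Of the 56 named genes, 45 kept their sign in each alternative run for them; the filter in both channels left out Zfp526 and Zfp827, and leaving out probes with the linker stretch was run for counts and medians alone. The other 11 crossed 0. With the mean of all probes, Zfp592 was at 0.0182, Zfp618 at -0.0879 and Zfp882 at -0.0309, and with a dye term Zfp592 was at 0.0992. When a replicate was left out, Zfp516 ranged from -0.19 to 0.28, Zfp592 from -0.22 to 0.26, Zfp608 from -1.05 to 0.0110, Zfp618 from -0.13 to 1.13, Zfp622 from -0.0474 to 0.19, Zfp637 from -0.58 to 0.23, Zfp644 from -0.51 to 0.18, Zfp703 from -0.91 to 0.20, Zfp704 from -0.16 to 0.0491 and Zfp830 from -0.34 to 0.15. The cause was not tested.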
